A study of Homo sapiens with 14 samples.

Results

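The 3 immunoglobulin loci of Nalm-6 cells, a human pre–B leukemia line, were examined for DNA:RNA hybrid peaks in cells that carried either allele of the splicing factor gene SF3B1. Peaks were members when they lay within chr14:105500000-106900000 (heavy chain, IGH), chr2:88800000-90300000 (kappa light chain, IGK) or chr22:22000000-22950000 (lambda light chain, IGL) of GRCh38. The 8 peak lists held 871 such peaks, 354 of them in IGH, 157 in IGK and 360 in IGL. Per list, 78 and 77 of 123720 and 131096 peaks were members in untreated WT, and 171 and 202 of 254170 and 296533 in untreated MT. After RNase H, 32 and 59 of 34952 and 77550 WT peaks and 126 and 126 of 201804 and 198837 MT peaks were members. No peak crossed an end of a window.

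The groups were SF3B1 K700K, called WT, and SF3B1 K700E, called MT, each with 2 libraries of untreated DNA and 2 of DNA treated with RNase H (RNH1), the enzyme that digests the RNA strand of a hybrid. Hybrids were captured with the S9.6 antibody from DNA cut by 5 restriction enzymes, and the captured DNA was sequenced (DRIP-seq). The sources used here do not say whether each genotype was 1 clone, or whether its 2 libraries came from separate cultures, so the tests below measure the spread between libraries, which may be technical. The copy number of the 3 loci in this line was not given in these sources either. A list therefore cannot tell a stretch that the cells have lost from one that carried no enriched signal.

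An immunoglobulin locus holds arrays of variable (V), joining (J) and constant (C) segments, and the heavy chain also diversity (D) segments. During B cell development, V(D)J recombination joins 1 V, 1 J and, in the heavy chain, 1 D segment, and often removes the DNA between them. A rearranged allele can therefore lack part of the germline sequence. The heavy chain constant genes, other than IGHD, are preceded by switch regions, repetitive DNA that is rich in G on the coding strand and is a textbook place of R-loop formation when it is transcribed during class switching. Pre–B cells have usually rearranged the heavy chain, express IGHM, and pair it with a surrogate light chain that includes the product of VPREB1, a gene inside the lambda locus.

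The sequences on which the results turn are given first, as 150 bases of GRCh38 each. They hold the end of a region at a restriction site where there was one, and the capitals mark the restriction sites. The first 4 had strong peaks in all untreated lists or in MT, the next 2 in WT, and the seventh lies over a lambda V pseudogene.
near IGHEP1, chr14:105724049-105724198, plus strand: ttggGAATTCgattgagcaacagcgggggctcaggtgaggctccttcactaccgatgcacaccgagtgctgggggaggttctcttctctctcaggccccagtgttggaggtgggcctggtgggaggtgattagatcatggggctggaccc
beyond IGHA2, chr14:105541606-105541755, plus strand: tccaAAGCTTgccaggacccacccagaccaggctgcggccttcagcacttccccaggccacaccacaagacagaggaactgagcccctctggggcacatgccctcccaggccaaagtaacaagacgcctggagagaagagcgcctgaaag
near IGHV2-70D, chr14:106719076-106719225, plus strand: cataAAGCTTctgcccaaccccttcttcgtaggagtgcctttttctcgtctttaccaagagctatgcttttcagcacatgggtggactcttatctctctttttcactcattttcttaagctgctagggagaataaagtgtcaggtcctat
near IGHV2-70, chr14:106766485-106766634, plus strand: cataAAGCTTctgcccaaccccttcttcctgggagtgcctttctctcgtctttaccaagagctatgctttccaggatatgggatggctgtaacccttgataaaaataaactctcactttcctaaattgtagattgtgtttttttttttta
near IGHD, chr14:105814577-105814726, plus strand: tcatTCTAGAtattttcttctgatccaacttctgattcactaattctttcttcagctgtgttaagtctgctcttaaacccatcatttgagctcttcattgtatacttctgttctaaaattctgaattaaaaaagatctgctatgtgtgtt
near IGHVIII-47-1, chr14:106534109-106534258, plus strand: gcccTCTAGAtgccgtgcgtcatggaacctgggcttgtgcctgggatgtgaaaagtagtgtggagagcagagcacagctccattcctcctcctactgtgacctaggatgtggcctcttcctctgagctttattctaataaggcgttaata
over IGLV7-35, chr22:22450338-22450487, plus strand: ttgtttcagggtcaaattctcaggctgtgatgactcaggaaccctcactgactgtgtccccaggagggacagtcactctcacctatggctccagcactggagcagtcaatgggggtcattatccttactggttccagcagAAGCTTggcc

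A pair of satellite-like arrays in the kappa locus had the tallest peaks of the 3 windows, and the switch region before IGHM had none. In the arrays, capitals mark the pentamers GGAAT and ATTCC, which are each other's reverse complement. In the switch region, shown over 300 bases in the direction of IGHM transcription, capitals mark the pentamers GAGCT and GGGCT.
kappa array, first, chr2:89830645-89830794, plus strand: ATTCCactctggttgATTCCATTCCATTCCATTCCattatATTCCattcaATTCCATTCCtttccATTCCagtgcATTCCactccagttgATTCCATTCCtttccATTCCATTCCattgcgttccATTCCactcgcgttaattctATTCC
kappa array, second, chr2:89838499-89838648, plus strand: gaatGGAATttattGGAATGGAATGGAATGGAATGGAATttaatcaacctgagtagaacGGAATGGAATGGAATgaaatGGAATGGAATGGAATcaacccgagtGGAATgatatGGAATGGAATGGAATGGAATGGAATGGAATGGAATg
switch region before IGHM, chr14:105859968-105860267, minus strand: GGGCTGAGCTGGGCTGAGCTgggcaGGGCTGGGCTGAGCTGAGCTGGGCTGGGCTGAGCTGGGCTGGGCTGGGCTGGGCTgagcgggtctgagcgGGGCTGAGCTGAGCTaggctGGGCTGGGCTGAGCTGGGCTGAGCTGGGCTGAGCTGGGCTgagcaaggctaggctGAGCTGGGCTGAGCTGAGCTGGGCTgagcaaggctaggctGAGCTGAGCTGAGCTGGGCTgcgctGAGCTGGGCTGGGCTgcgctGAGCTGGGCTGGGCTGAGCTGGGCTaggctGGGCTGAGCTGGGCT

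Every list had peaks in all 3 loci. Their fold enrichment at the summit, the ratio of reads over the local background, ranged from 1.59 to 16.1. The IGH window held 33 and 26 peaks in untreated WT against 70 and 82 in untreated MT, 16 and 28 in WT after RNH1 and 52 and 47 in MT after RNH1. In IGK there were 13 and 15, 28 and 31, 7 and 14, and 24 and 25 peaks in the same order. In IGL there were 32 and 36, 73 and 89, 9 and 17, and 50 and 54. In each locus, both untreated MT lists held more peaks than both untreated WT lists, and the groups did not overlap.

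**Figure D1:**
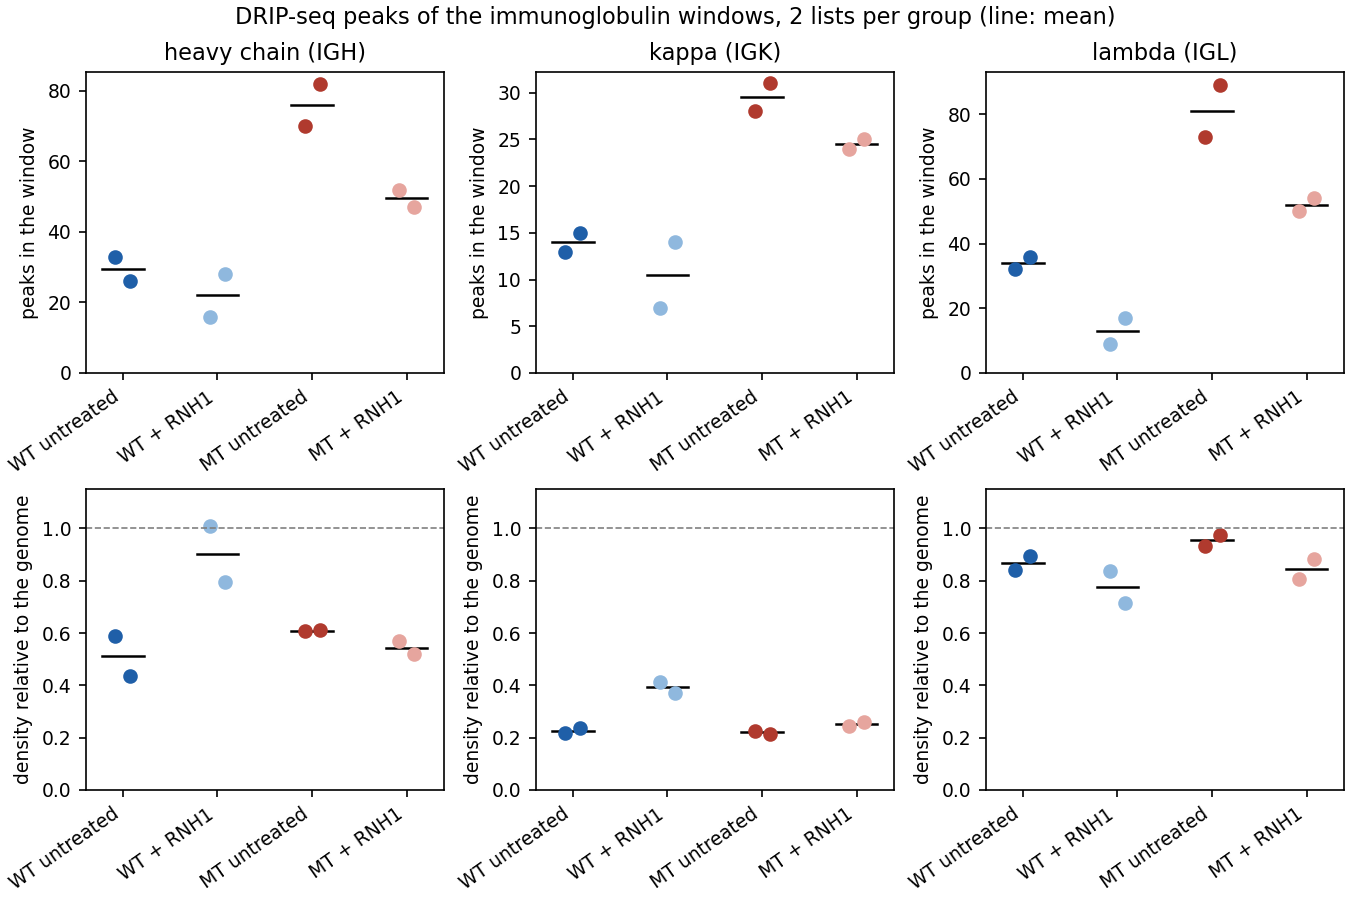
Peaks per list in each window (upper row) and their density relative to that of chromosomes 1 to 22, X and Y of the same list (lower row, dashed line at 1). Points are lists and lines are means of 2. Counts are highest in untreated MT in all 3 loci, while the relative density of untreated MT lies between 0.215 and 0.976 and near that of untreated WT.

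The lists differ in length, so each locus was also compared with its own list. Relative density, the peaks per Mb of the window over the peaks per Mb of chromosomes 1 to 22, X and Y, was 0.588 and 0.437 in untreated WT for IGH and 0.608 and 0.61 in untreated MT. For IGK it was 0.216 and 0.236 in WT against 0.227 and 0.215 in MT, so the kappa window held fewer peaks for its length than the other 2 loci in every list. With assembly gaps left out, which take 268 kb of the kappa window, it was 0.251 and 0.273 in WT against 0.263 and 0.249 in MT, an alternative chosen after seeing the data. For IGL it was 0.841 and 0.893 in WT against 0.934 and 0.976 in MT. Chromosome 22, taken over its full length with assembly gaps, is itself sparse in peaks. The lambda window, with 0 kb of gaps, had 1.22 to 2.13 times that density over the 8 lists. Gaps in the chromosome raise this ratio, and it was not computed without them.

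The lambda window stood above its flanks and the kappa window below them. Flanks were the 1 Mb on either side, cut short where the chromosome ended. Assembly gaps were left out of the length of the flanks but not of the windows, and take 268 kb in kappa. In untreated DNA the lambda flanks held 14 and 15 peaks per Mb in WT and 31.5 and 35.5 in MT, below the 33.7 and 37.9 and the 76.8 and 93.7 peaks per Mb of the locus itself. The kappa flanks held 29.9 and 30.8 peaks per Mb in WT and 68.9 and 82.5 in MT, above the 8.67 and 10 and the 18.7 and 20.7 of the locus. The heavy chain flanks, with 18 and 18 peaks per Mb in WT and 38 and 39 in MT, were close to the 23.6 and 18.6 of the locus in WT and below its 50 and 58.6 in MT.

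Comparison of SF3B1-MT vs WT asked whether the mutation went with more hybrid peaks at these loci. In untreated DNA the mean log2 count was higher in MT by 1.37 (SD 0.29) for IGH, 1.08 (SD 0.18) for IGK and 1.25 (SD 0.24) for IGL, with n = 2 lists per genotype. The log2 relative density differed by 0.26 (SD 0.30) for IGH, -0.03 (SD 0.10) for IGK and 0.14 (SD 0.08) for IGL. In a two-sided exact permutation test p was 0.333 for each count, the smallest that 2 against 2 lists can give, so no difference here can pass 0.05. The p of relative density was 0.333 for IGH and IGL and 0.667 for IGK, and adjusted over 21 tests (Benjamini-Hochberg) these exact permutation values became 0.412 and 0.7.

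When each list was cut to its 34952 most significant peaks, the length of the shortest list, the difference in counts did not hold. This cut takes away the difference between whole lists, so a locus that follows its list loses its count difference by construction. IGH then had 14 and 11 untreated peaks in WT against 12 and 11 in MT, IGK 6 and 7 in WT and 5 and 5 in MT, and IGL 8 and 10 in WT and 10 and 11 in MT. The log2 differences became -0.11, -0.37 and 0.23. Depth, read as the most common background pileup of a list, also moved with genotype, from 2.99 and 3.13 reads in untreated WT to 3.51 and 4.35 in untreated MT. Its part in the counts was not tested.

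RNH1 treatment went with fewer peaks in 11 of 12 comparisons, which are the 4 pairs of lists taken at each locus. The loci share these pairs, so the comparisons are not independent. The exception was the second WT pair of IGH, in which the RNH1 list held 108% as many peaks as the untreated list. In the other comparisons it held 28.1% to 93.3%. Over the genome the RNH1 lists of WT were 28.3% and 59.2% as long as the untreated lists and those of MT 79.4% and 67.1%. Over the 4 pairs, the mean log2 ratio of untreated to RNH1 counts was 0.54 (SD 0.50) for IGH, 0.38 (SD 0.35) for IGK and 1.04 (SD 0.57) for IGL. The exact permutation test within pairs gave p = 0.25, 0.125 and 0.125, where 0.125 is the smallest that 4 pairs can give, and 0.412 for all 3 after adjustment. Background pileup was also lower after RNH1, at 1.62 and 2.17 reads in WT and 2.76 and 2.55 in MT, and its part was not tested.

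Relative to the genome, the loci went different ways after RNH1. For IGH, relative density was 1.01 and 0.796 in the WT RNH1 lists and 0.568 and 0.521 in the MT RNH1 lists. For IGK it was 0.412 and 0.372 in WT against 0.245 and 0.259 in MT, and for IGL 0.837 and 0.713 in WT and 0.805 and 0.883 in MT. WT was therefore above MT without overlap in IGH and IGK, by 0.72 (SD 0.26) and 0.64 (SD 0.12) on the log2 scale, and the values overlapped in IGL, where MT was higher by 0.13 (SD 0.19). Exact permutation p was 0.333 for IGH and IGK and 0.667 for IGL. With the same number of peaks per list the kappa difference turned around, to 0.34 in favour of MT, while that of IGH stayed at -0.73. With the windows cut to the annotated segments, MT minus WT was -0.38 for IGH and -0.59 for IGK.

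Counts after RNH1 were higher in MT by 1.22 (SD 0.58), 1.31 (SD 0.71) and 2.07 (SD 0.65) on the log2 scale for IGH, IGK and IGL, each with an exact permutation p of 0.333. At equal list length, the differences of IGH and IGL turned to -0.73 and -0.17. Between untreated and RNH1 lists of a pair, log2 relative density differed by -0.33 (SD 0.57) for IGH, -0.49 (SD 0.37) for IGK and 0.17 (SD 0.13) for IGL, with exact permutation p of 0.5, 0.125 and 0.125.

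An untreated peak was called bona fide, after the naming of the study, when the RNH1 list of its genotype and number had no peak over any of its bases. The study itself called such peaks over the RNH1-treated samples, and reported a higher number of them in MT. The shares given here are thus another measure than that number. In IGL, 28 of 32 and 30 of 36 untreated WT peaks were bona fide (87.5% and 83.3%), against 44 of 73 and 52 of 89 in MT (60.3% and 58.4%). In IGK the shares were 61.5% and 53.3% in WT against 42.9% and 41.9% in MT, and in IGH 69.7% and 53.8% in WT and 54.3% and 58.5% in MT. Genotypes did not overlap in IGL or IGK and overlapped in IGH. The differences of MT from WT were -26.1 points (SD 3.22) in IGL, -15 (SD 5.84) in IGK and -5.36 (SD 11.6) in IGH, with exact permutation p of 0.333, 0.333 and 1. Over the genome the share was 81.9% and 65.8% in WT against 49.1% and 51.2% in MT, so the order in IGL and IGK was that of all peaks. The longer MT RNH1 lists hold more peaks that an untreated peak can meet, and the part of list length was not tested.

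Peaks of the 8 lists that shared a base were merged into 327 regions, of 480321 over the genome: 129 in IGH, 53 in IGK and 145 in IGL. In 1 list only were 34.1% of the IGH regions, 30.2% in IGK and 33.8% in IGL, against 33% over the genome. Of 327 regions, 86 (26.3%) had a peak in both untreated MT lists and in neither untreated WT list, beside 27.6% of all regions. The reverse, both WT lists and neither MT list, held for 19 (5.81%), beside 7.01%. A peak in all 4 untreated lists was found for 26 regions (7.95%, beside 8.92%), and in all 8 lists for 11 (3.36%, beside 2.20%). There were 4 (1.22%, beside 1.48%) with a peak in all 4 untreated lists and none after RNH1. In contrast, 18 (5.5%, beside 4.52%) lacked an untreated peak and had one in both RNH1 lists of a genotype. These shares lie near those of the genome, and they are descriptions without a test.

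By locus, a peak in all 4 untreated lists was found in 15 of 129 IGH regions (11.6%), 5 of 53 IGK regions (9.43%) and 6 of 145 IGL regions (4.14%), beside 8.92% over the genome. A peak in all 8 lists was found in 7 (5.43%), 3 (5.66%) and 1 (0.69%), beside 2.20%. These shares are a description, and the differences between loci were not tested. Among the 26, both MT fold enrichments lay above both WT values in 10 (7 in IGH, 1 in IGK, 2 in IGL), beside 43.6% of 42834 such regions over the genome. Both lay below in 12 (7, 3 and 2), beside 26.4%. Of the 11 regions in all 8 lists, the mean enrichment after RNH1 was above the untreated mean in 9, beside 72.9% of 10557. A fold enrichment is set against the background of its own list, which is lower after RNH1.

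Lists of a group shared most members, except the second WT RNH1 list. In untreated DNA, 69.2% and 66.2% of the WT members and 81.3% and 67.8% of the MT members shared a base with a peak of the other list of the group, where the genome gave 71.1% and 66.7%, and 81.1% and 69.3%. After RNH1 it was 81.2% and 42.4% in WT against 75.4% and 73.8% in MT. Of the WT members, 53.8% and 57.1% also met a peak of the MT list with the same number, and 24% and 21.8% of the MT members met one of WT.

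In WT, the heavy chain peaks lay mainly at both ends of the locus. The 272 kb of constant genes, from IGHA2 to IGHM, held 9 and 8 peaks in untreated WT against 10 and 15 in untreated MT, 5 and 10 in WT after RNH1 and 11 and 8 in MT after RNH1. The 83.5 kb between IGHM and the first V segment, with the J and D segments, held 0 in each of the 8 lists. The V segments were divided at their midpoint into blocks of equal length. The block farther from IGHM, 470 kb, held 20 and 15 untreated peaks in WT against 42 and 45 in MT, close to the density of the genome (relative density 0.752 to 1.09). The block nearer to IGHM, also 470 kb, held 2 and 1 in WT and 14 and 18 in MT, a relative density of 0.106 and 0.0501 against 0.362 and 0.399.

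**Figure D2:**
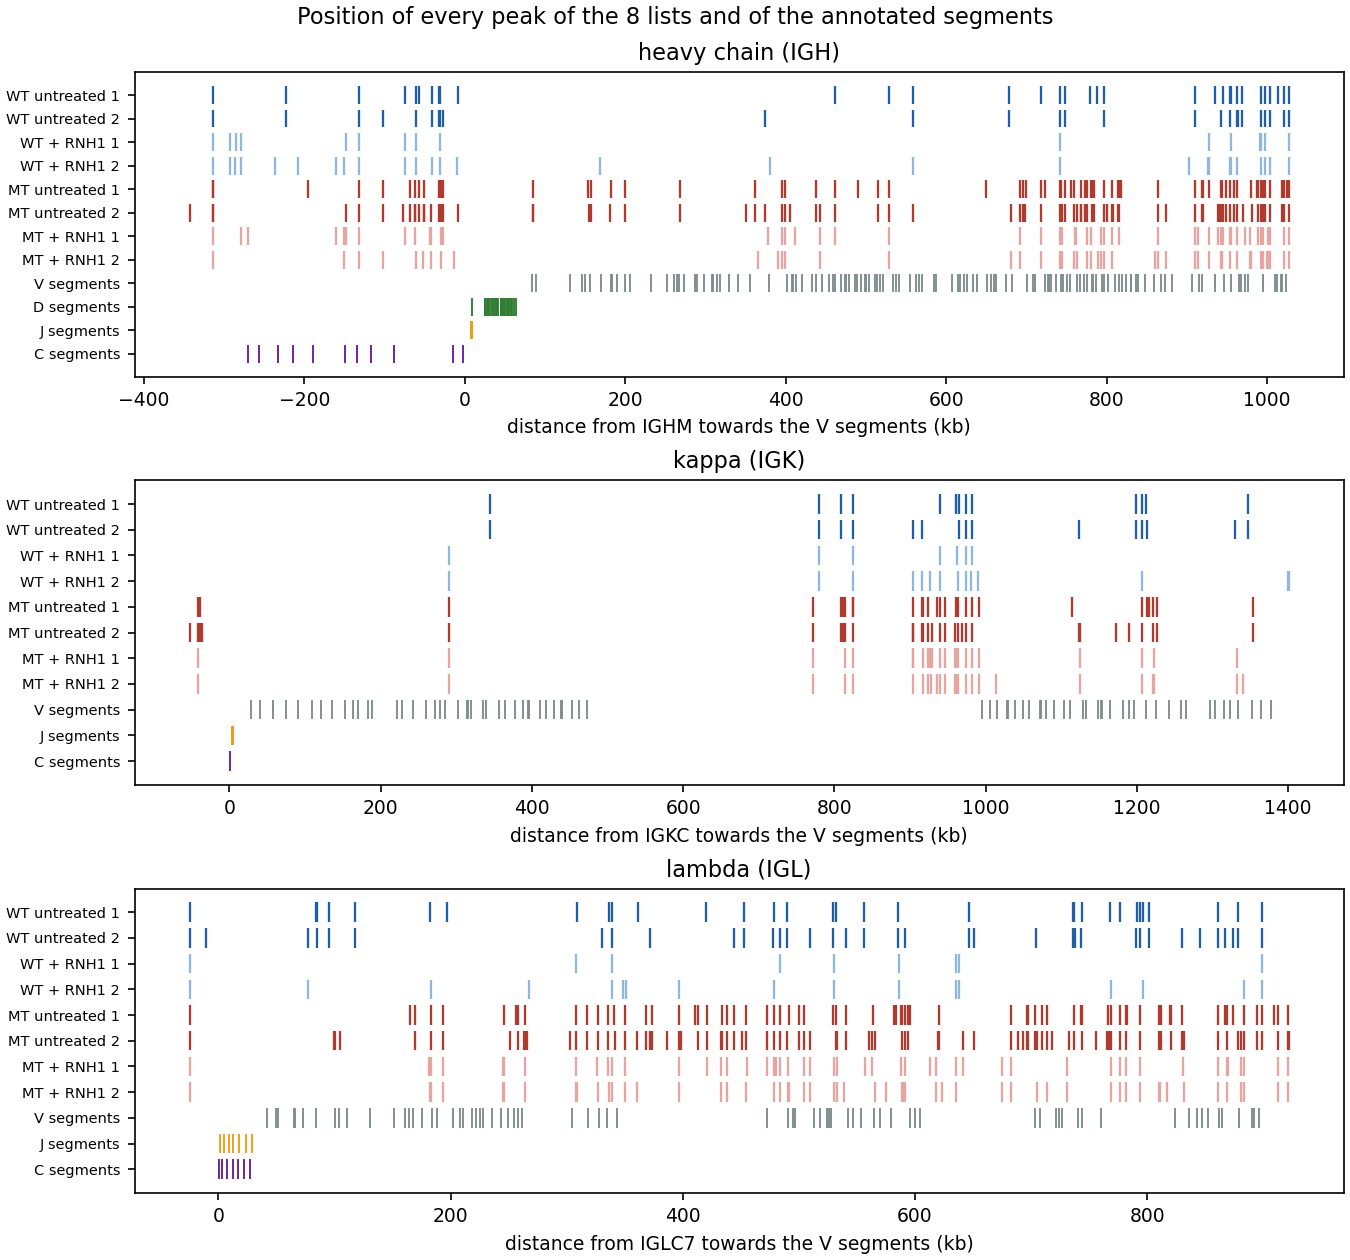
Position of each peak of the 8 lists (upper ticks) and of the annotated segments (lower ticks) along the 3 windows, in kb from IGHM, IGKC or IGLC7 in the direction of the V segments. No peak lies over the J segments of any locus, the D segments of IGH, IGHM, IGKC or IGLC1 to IGLC7, and the WT rows of IGH are almost empty over the nearer V segments.

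Of all V-segment peaks of the heavy chain, the nearer block thus held 9.09% and 6.25% in untreated WT and 25% and 28.6% in untreated MT. Exact (Clopper-Pearson) 95% intervals, which cover counting error only, were 1.12% to 29.2% and 0.158% to 30.2% for WT and 14.4% to 38.4% and 17.9% to 41.3% for MT, and they overlap. The difference was 19.1 points, with an exact permutation p of 0.333 (n = 2 lists per genotype), and this comparison was chosen after the peaks were seen. After RNH1 the shares were 0 of 6 peaks, which allows up to 45.9%, and 15.4% in WT, and 18.4% and 16.2% in MT. Restricted to the same number of peaks per list, the nearer block kept 0 of 8 and 0 of 5 untreated WT peaks, which allows up to 36.9% and 52.2%, and 1 of 10 and 0 of 9 MT peaks. There the difference was 5 points with an exact permutation p of 1. The blocks were alike in restriction sites, with 1.89 and 1.98 cuts per kb, and in GC content, with 41.9% and 41.3%.

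**Figure D3:**
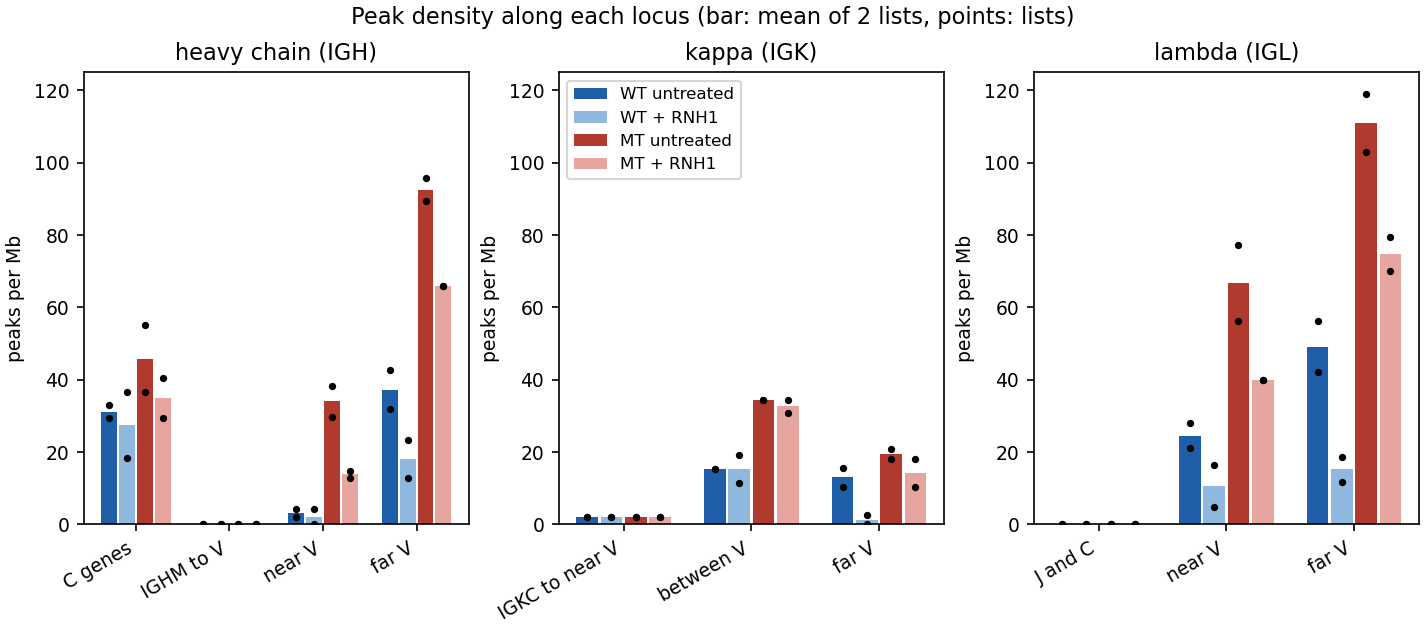
Peaks per Mb along each locus, bars being the mean of 2 lists and points the lists. No bar rises above 0 between IGHM and the heavy chain V segments or over the lambda J and C segments, and the stretch from IGKC to the near kappa V segments stands at 2.11 peaks per Mb in every list.

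IGHM encodes the mu chain of the pre–B cell receptor. No list had a peak over it, over the 8 kb before it or between it and IGHJ6, the last J segment, and the nearest peak to that interval was 9022 bp away. The interval is where the switch region of IGHM lies. On the coding strand it carried 397 GAGCT or GGGCT pentamers, 56.9 per kb, with up to 46 in 300 bases. That maximum is over windows moved base by base within the interval, and the sequence printed above is the window that gave it. Of 301868 fixed, adjoining windows of that length on chromosome 14, 0.00066% held as many. Fixed windows can miss a maximum that moved windows find, so the measures are unlike. Its GC content was 57.2% and its GC skew, (G - C)/(G + C) on the coding strand, 0.25.

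The other constant genes encode the remaining heavy chain classes. Pentamers were also dense in the 8 kb before IGHA1 (378), IGHA2 (329) and IGHE (113), and no list had a peak in these 3 windows, nor before IGHG1 or IGHGP. The 8 kb before IGHG4 held a peak in both untreated WT lists, that before IGHD in 3 lists, and those before IGHG3 and IGHG2 in 1 list each. IGHEP1, an epsilon pseudogene, was the exception, with a peak before it in all 8 lists and 49 pentamers in 8 kb. Within the genes themselves, IGHA1 had a peak in 5 lists, the 4 RNH1 lists and 1 untreated MT list, and IGHA2 and IGHD in 1 MT RNH1 list each. IGHG1 to IGHG4, IGHGP, IGHE and IGHEP1 had none.

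The region near IGHEP1, chr14:105724054-105724785, lies in no annotated gene, 1527 bp from the pseudogene, and starts at an EcoRI cut. Its fold enrichment was 7.01 and 8.73 in untreated WT against 10.9 and 11.6 in untreated MT, 8 and 10.5 in WT after RNH1 and 14.4 and 12.8 in MT after RNH1. MT was above WT in both treatments, and in each of the 4 pairs the RNH1 value was above the untreated one. At the summit, 27 and 35 reads were piled up in untreated WT and 48 and 73 in untreated MT.

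Beyond the end of the constant genes, 41741 bp from IGHA2, chr14:105541611-105541990 gave 8.61 and 6.62 in untreated WT and 9.56 and 9.29 in untreated MT. After RNH1 it gave 8.71 and 9.87 in WT and 16.1 and 15 in MT, the highest enrichments among all members, on 99 and 96 reads. The other IGH regions found in all 8 lists were chr14:105824988-105826229 between IGHD and IGHG3, chr14:106597236-106598696 near the pseudogene IGHVII-53-1, chr14:106809406-106811694 over IGHV3-74, chr14:106847691-106848742 near IGHV5-78 and chr14:106882483-106883610 beyond the last V segment. The last of these had 7.24 and 7.86 in untreated WT and 4.44 and 4.33 in untreated MT, and 9.78 and 11 against 8.46 and 7.99 after RNH1. In both genotypes, enrichment after RNH1 was thus above that of untreated DNA there.

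The V region of the heavy chain held a pair of regions whose first bases were alike. IGHV2-70 and IGHV2-70D are duplicated V genes of the VH2 family. At chr14:106719081-106720334, 3240 bp from IGHV2-70D, enrichment was 8.37 and 8.46 in untreated MT and 6.84 and 5.32 after RNH1, and no WT list had a peak. At chr14:106766490-106767349, 3228 bp from IGHV2-70, it was 9.01 and 11.6 in untreated MT and 6.82 and 5.51 after RNH1, and 3.76 and 5.33 in untreated WT, with no peak in WT after RNH1. Both start at a HindIII cut. Their first 100 bases were 16 edits apart, while the next 2 stretches of 100 bases were 43 and 42 edits apart. Within the first 300 bases, likeness was thus seen only in the first 100, and the rest of the regions was not compared. Whether reads were split between the regions was not tested.

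Other IGH regions with peaks in untreated MT and not in untreated WT were led by chr14:106662519-106662892 near IGHV3-65, with 6.53 and 7.94, and chr14:106636606-106638292, which covers the pseudogene IGHVII-60-1 and the 5S ribosomal RNA pseudogene RNA5SP389, with 7.46 and 6.87. After RNH1 the first kept 5.23 and 7.04 in MT and the second 3.86 and 3.6. In the opposite direction, chr14:105814582-105815124, 21641 bp from IGHD, had 7.93 and 9.39 in untreated WT, 3.64 in 1 WT RNH1 list and no peak in MT. It reaches from an XbaI cut to a BsrGI cut. At chr14:106534114-106534575, near IGHVIII-47-1, enrichment was 9.52 and 7.76 in untreated WT, and none of the other 6 lists had a peak. The weakest named WT region, chr14:106825157-106825521 near IGHV3-75, had 4.3 and 4.42.

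Peaks covered 1.32% and 1.12% of the IGH window in untreated WT and 2.65% and 3.43% in untreated MT, and hits to the segments were counted beside this. Of 127 heavy chain V segments, untreated WT had a peak over 4 and 1 and untreated MT over 11 and 12, and after RNH1 WT had 1 and 0 and MT 8 and 6. In any list 14 were hit, 4 of 49 annotated as genes and 10 of 78 annotated as pseudogenes. The gene IGHV3-74 was hit in 7 lists, and its region had an enrichment of 3.75 to 5.97 over the 8 lists. No D segment of 27 and no J segment of 9 was hit in any list, and 3 of 11 constant genes were. Of the 129 IGH regions 18 overlapped a segment, 3 another gene only and 108 no gene, at a median distance of 1843 bp from the nearest segment.

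Longest of the stretches without a peak in any list was chr14:105847198-105940470 for IGH, 93.3 kb with 38 segments from IGHM to IGHV6-1. It ranked 9th of 15630 such stretches on chromosome 14, whose median was 3.45 kb. In the untreated WT lists together the stretch from IGHM reached 383 kb, to IGHV3-20, and spanned 65 segments. Other lists had peaks within those 383 kb. The second WT RNH1 list had a peak at chr14:106024452-106024856 (4.73), and both untreated MT lists at chr14:106037453-106037873 (7.09 and 6.54). For the 93.3 kb without a peak in any list, absence from the rearranged alleles of the line cannot be told apart from a lack of signal.

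**Figure D4:**
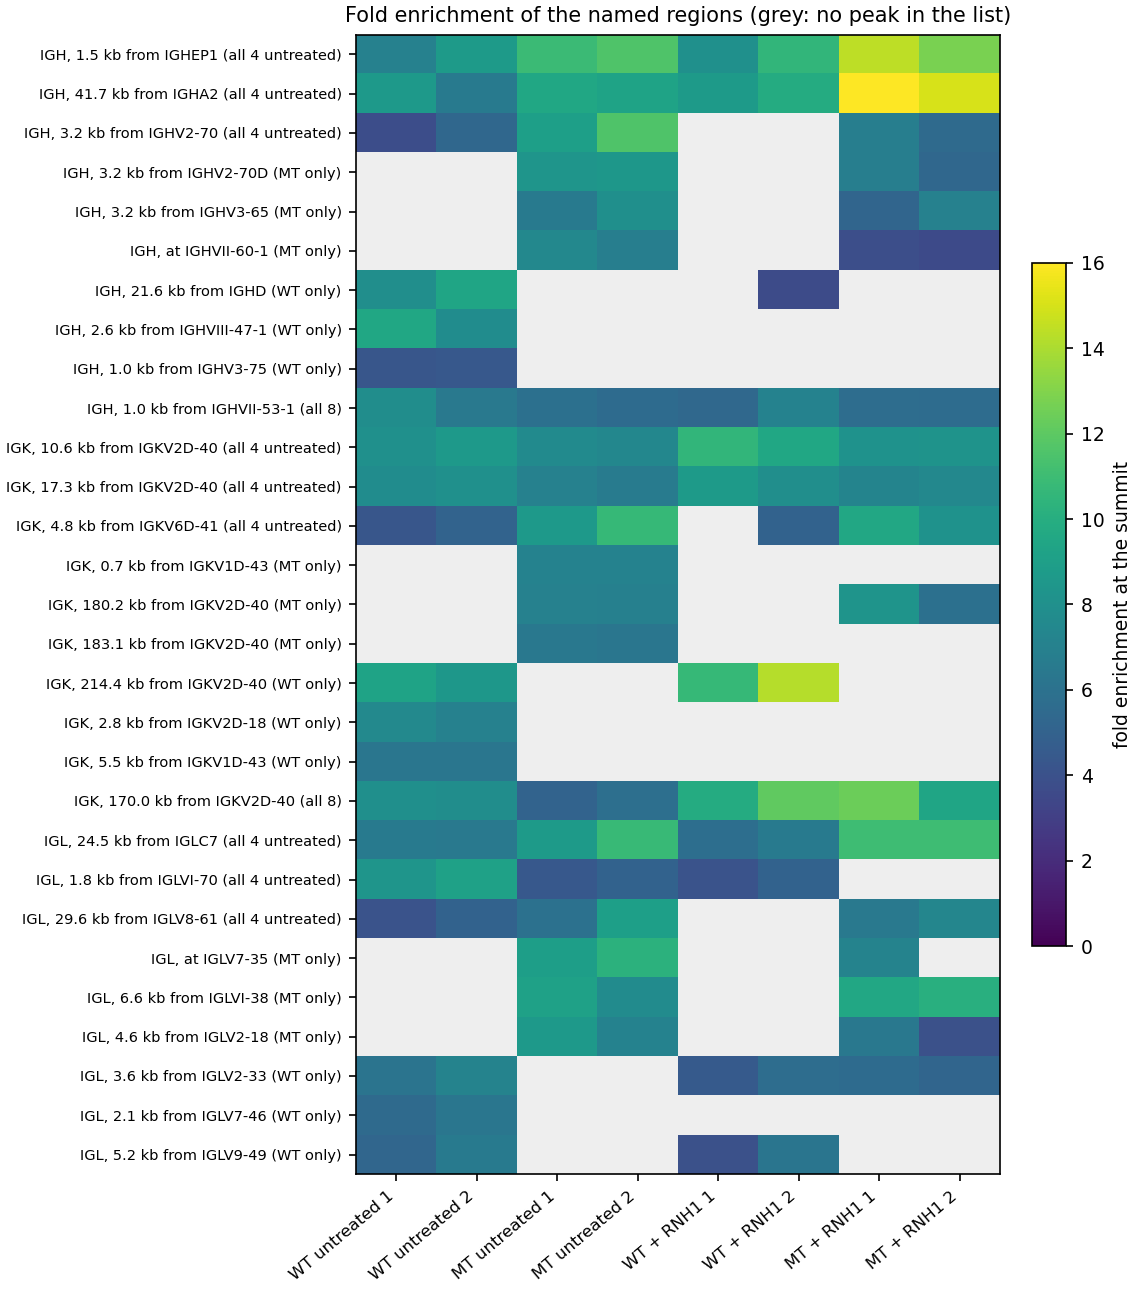
Fold enrichment at the summit of each named region (rows, with the distance to its nearest immunoglobulin segment and the rule that named it) in each of the 8 lists (columns), where grey is a list without a peak. The brightest cells, 16.1 and 15, are the MT RNH1 lists of the region beyond IGHA2.

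The kappa locus had long stretches without peaks around its constant gene. IGKC is the only kappa constant gene, and no list had a peak over it, over the 5 J segments or between them, with the nearest peak 35737 bp away from IGKC. The stretch chr2:88821425-89147194, 326 kb with 26 segments from IGKC to IGKV3-20, was empty in all 8 lists. With stretches ended at assembly gaps, it was the 5th longest of 43134 on chromosome 2, where the median was 3.41 kb. Over the 473 kb from IGKC through the near V segments, each list had exactly 1 peak, at 2.11 per Mb. In the WT untreated lists it was chr2:89201544-89201869 near IGKV2-26, with 5.26 and 6.3, and in the other 6 lists chr2:89147195-89148654 near IGKV3-20. There the enrichment was 3.77 and 2.8 in untreated MT, 6.66 and 7.32 in MT after RNH1 and 6.48 and 8.37 in WT after RNH1, so both RNH1 lists of MT lay above both untreated ones.

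Between the V clusters of kappa, 521 kb that include the assembly gap, lists held 8 and 8 peaks in untreated WT against 18 and 18 in untreated MT, 6 and 10 in WT after RNH1 and 18 and 16 in MT after RNH1. The far V cluster, 384 kb, held 4 and 6, 7 and 8, 0 and 1, and 4 and 7 in the same order. Over V segments themselves there was a peak at 2 of 76, IGKV6D-41 in both untreated WT lists and 1 untreated MT list and the pseudogene IGKV2D-19 in 1 untreated MT list. Of 53 kappa regions 41 overlapped no gene, and the median distance to a segment was 25722 bp.

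The tallest members were the arrays between the V clusters, both in all 8 lists. The first, chr2:89826935-89834506, spans 7572 bp and holds 777 ATTCC and 0 GGAAT pentamers on the upper strand. The second, chr2:89835967-89841181, spans 5215 bp and holds 584 GGAAT and 0 ATTCC. The arrays therefore face opposite ways. Each repeats at 5 bp, where 71.3% and 74.1% of bases equal the base 1 period on, and their median 300-base windows held 30 and 33 pentamers, a number reached by 0.0045% and 0.0027% of 801801 windows of chromosome 2. Satellites II and III of human pericentromeres are built from this pentamer.

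In the first array the enrichment was 7.78 and 8.06 in untreated WT against 7.04 and 6.65 in untreated MT, 8.71 and 7.89 in WT after RNH1 and 7.2 and 7.44 in MT after RNH1. In the second it was 8.04 and 8.64, 7.63 and 7.43, 10.5 and 9.5, and 8.16 and 8.2. Both untreated WT values lay above both MT values in each array, and the RNH1 lists were not below the untreated ones of their genotype in the second. Untreated pileups were 217 and 301 reads in WT and 350 and 370 in MT for the first and 226, 330, 375 and 408 for the second. Reads of 50 bases cannot be placed with certainty within such repeats, and copies elsewhere in the genome may share them, so these values are uncertain.

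Other kappa regions were weaker in reads. At chr2:89681077-89681823, in all 8 lists, enrichment was 7.94 and 7.84 in untreated WT against 5.1 and 5.87 in untreated MT, 9.85 and 12.1 in WT after RNH1 and 12.4 and 9.42 in MT after RNH1. At chr2:90063654-90064853 near IGKV6D-41 it was 4.26 and 5.09 in untreated WT and 8.64 and 10.7 in untreated MT. A region inside the pseudogene KMT2CP4, chr2:89637043-89637358, had 9.27 and 8.48 in untreated WT and 10.7 and 14.2 in WT after RNH1, and no MT list had a peak. Near IGKV2D-18 and IGKV1D-43, chr2:90056145-90056983 had 7.52 and 7.03 and chr2:90204026-90204366 had 6.26 and 6.3 in untreated WT and no peak in the other 6 lists. The strongest MT counterparts were chr2:90211208-90211497 near IGKV1D-43, with 7.09 and 7.1, chr2:89671084-89671631, with 7.05 and 6.97, and chr2:89668302-89668654, with 6.4 and 6.29. After RNH1 the middle one kept 8.27 and 5.9 in MT, and the outer ones had no peak.

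In the lambda locus the peaks spread over the V segments. The lambda V segments were divided likewise. The block of 428 kb farther from the constant genes held 18 and 24 peaks in untreated WT against 44 and 51 in untreated MT, 5 and 8 in WT after RNH1 and 30 and 34 in MT after RNH1. The nearer block held 12 and 9, 24 and 33, 2 and 7, and 17 and 17. From the last V segment to IGLC7, 41.6 kb with the J and C segments, there was no peak in any of the 8 lists, and the nearest peak to the J and C cluster was 10816 bp away. The stretch chr22:22845907-22933849, 87.9 kb with 20 segments from IGLV3-6 to IGLC7, was empty and ranked 20th of 3986 on chromosome 22, where the median was 4.77 kb.

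Genes other than segments lie among the lambda V segments. VPREB1, which encodes part of the surrogate light chain, had no peak in any list, the nearest being 2240 bp away, and IGLL5, GGTLC2 and ZNF280A had none either. ZNF280B, a zinc finger gene, had 1 and 0 peaks in untreated WT against 3 and 4 in untreated MT, 0 and 0 in WT after RNH1 and 3 and 2 in MT after RNH1. PRAME, a cancer-testis antigen gene, had 0 and 1 in untreated WT against 2 and 3 in untreated MT and 0 in all 4 RNH1 lists. None of the 7 protein-coding genes of the 3 windows had a peak in all 4 untreated lists.

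Of 73 lambda V segments 10 were hit in any list, and no J or C segment was. Of 145 lambda regions 11 overlapped a segment, 35 another gene only and 99 no gene, at a median distance of 4636 bp from a segment. IGLV7-35, a pseudogene, carried the strongest lambda region among those with a peak in both untreated MT lists and neither untreated WT list: chr22:22450116-22450482 had 8.99 and 10.3 there, 7.16 in 1 MT RNH1 list and no peak in WT. It ends at a HindIII cut inside the pseudogene. Next came chr22:22418899-22419210 near IGLVI-38, with 9.13 and 7.74 in untreated MT and 9.58 and 10.1 after RNH1, and chr22:22729328-22729971 near IGLV2-18, with 8.64 and 7.1 and then 6.39 and 3.94. No WT list had a peak at either. The pseudogene IGLV3-7 was hit in both untreated WT lists and in no other list.

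The lambda regions with peaks in untreated WT and not in untreated MT differed from each other after RNH1. ASH2LP2, a pseudogene, overlapped chr22:22366091-22367517, with 5.54 and 6.31 in untreated WT and no other peak. In contrast chr22:22584229-22584579 near IGLV2-33 had 6.18 and 7.16 in untreated WT, no peak in untreated MT, and 5.58 and 5.24 in MT after RNH1, so that its absence in untreated MT was not an absence in both treatments. Near IGLV9-49, chr22:22337012-22337972 had 5.25 and 6.56, and 3.96 and 6.24 after RNH1.

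Among lambda regions in all 4 untreated lists, chr22:22947494-22948107, 24460 bp beyond IGLC7, was in all 8: 6.54 and 6.48 in untreated WT against 8.72 and 10.8 in untreated MT, 5.76 and 6.54 in WT after RNH1 and 11 and 11 in MT after RNH1. MT was above WT in both treatments. At the other end of the locus, chr22:22023587-22024304 in PRAMENP went the opposite way, with 8.36 and 9.16 in untreated WT against 4.43 and 5.05 in untreated MT, 4.07 and 5.04 in WT after RNH1 and no peak in MT after RNH1. At chr22:22128793-22129314 enrichment was 4.11 and 5.03 in untreated WT and 5.94 and 9.01 in untreated MT, and 6.45 and 7.34 in MT after RNH1.

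Regions with a peak in all 4 untreated lists and none after RNH1 were few and of low enrichment. They were chr14:105824186-105824795 near IGHD (3.87 and 4.09 in WT, 2.92 and 3.75 in MT), chr14:106603817-106604258 near IGHV4-55 (4.92 and 4.46, 3.91 and 4.17), chr2:89665192-89665801 between the kappa V clusters (5.26 and 3.88, 4.43 and 3.92) and chr22:22185693-22187627 over the pseudogene BMP6P1 (4.86 and 4.33, 3.43 and 4.09). All 4 are named, after their values were seen. With peaks of at least 4-fold enrichment, none was left. Conversely, chr22:22304331-22304680 in the pseudogene BMS1P20 had 12.2 and 11.9 in MT after RNH1 and no peak in any of the other 6 lists, and was singled out after its values were seen.

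Many peak edges fell exactly on restriction cuts. Of the 871 members, 472 (54.2%) had at least 1 edge at the end of a fragment cut by HindIII, EcoRI, BsrGI, XbaI or SspI, and 20 (2.3%) had both. By locus it was 202 of 354 in IGH (57.1%), 74 of 157 in IGK (47.1%) and 196 of 360 in IGL (54.4%), and over the 3 chromosomes the lists ranged from 49.1% to 54.4%. Cut sites make up 0.197%, 0.204% and 0.14% of the positions of chromosomes 14, 2 and 22. At a distance of 0 bp lay 243 left and 249 right edges, while no other distance within 60 bp of a cut had more than 4. SspI gave 130 of these edges, HindIII 107, BsrGI 105, EcoRI 89 and XbaI 61. Of the 29 named regions 26 had an edge at a cut, as the printed sequences show except those of the arrays and the switch region.

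**Figure D5:**
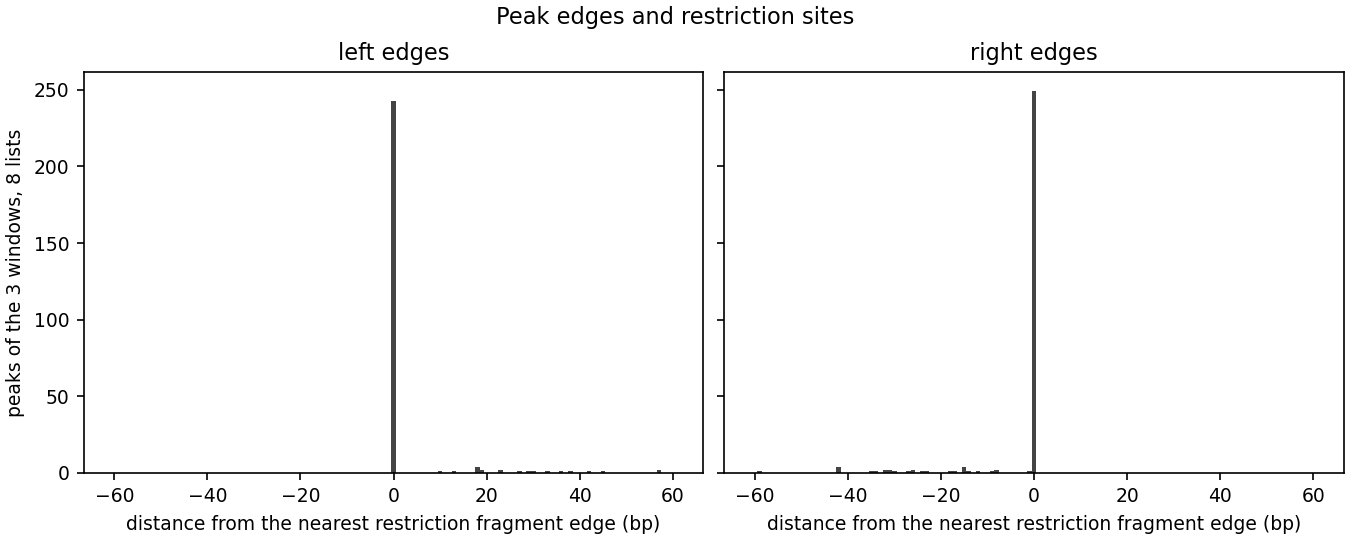
Distance from each peak edge of the 3 windows to the nearest restriction fragment end, in bp, for left and right edges, counted over the 8 lists. A single bar at 0 holds 243 left and 249 right edges, and no other bar holds more than 4.

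The base composition of the members moved with genotype as in the rest of the lists. Median GC content of IGH peaks was 40.2% and 38.7% in untreated WT and 43.7% and 43.3% in untreated MT, of IGL peaks 39.5% and 39.2% against 44.2% and 42.7%, and of IGK peaks 34.8% and 34.8% against 40.2% and 40.2%. Over the genome it was 37% and 37.5% against 41.6% and 41.1%. Its part in the differences above was not tested.

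The cell type could not be checked from these lists, which measure hybrids and not RNA. CD79A and CD79B, which encode the signalling chains of the B cell receptor, had no peak in any list, and PAX5 and EBF1, transcription factors of the B lineage, had one in all 8. PAX5 and EBF1 are also long genes, of 201 and 404 kb, against 4.09 and 3.6 kb for CD79A and CD79B. Of 13 genes of the B lineage (median length 28.1 kb) 6 had a peak in all 4 untreated lists and 5 had none there, and of 12 genes of other cell types (median 9.43 kb) 3 had one in all 4 and 6 had none. The part of gene length in these counts was not tested.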

How the data were processed

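Methods state that the authors mapped 50-base reads of the 8 Nalm-6 DRIP-seq libraries with BWA-MEM to GRCh38, took out mitochondrial and duplicate reads, and called narrow peaks with MACS2, in paired-end mode and at a q of 0.05. For each library, the deposited list gives the fold enrichment of a summit over local background (a ratio), −log10 p-values and q-values, and a whole-number score. It holds no reads and no peak with −log10 q under 2. Since the reads were single and the stated q is looser than that of the lists, the settings behind the lists are not settled, and a pileup given here in reads may count fragments. Depth was read from background pileups recovered from fold enrichment and p (99.94% to 99.99% of summit pileups whole within 0.001).

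Peaks on 24 chromosomes were assigned to the 3 windows, merged when they shared a base, and placed on GENCODE 44 and the restriction sites of GRCh38 (Python 3.11.15, numpy 2.4.6, pandas 2.3.3, scipy 1.17.1; figures, matplotlib 3.10.9). Groups came from the labels. WT and MT were compared by exact permutation over 2 against 2 lists, and untreated and RNH1 lists within 4 pairs, since each DNA preparation was divided before treatment. Labels give only a replicate number, so which untreated and RNH1 lists belong together was assumed from it. Log ratios of replicate 1 to 2 correlated at -0.00 between untreated WT and MT over 42834 regions. Between treatments they correlated at 0.01 in WT and 0.02 in MT over 10557 regions. These correlations gave no sign of a shared replicate for the genotypes or for the treatment pairs. Named regions were, per locus, the 3 of highest mean untreated enrichment among those in all 4 untreated lists, in untreated MT and not WT, the reverse, and in all 8 lists. The members and lists were chosen with earlier results of these data known. Alternatives included enrichment of at least 4, −log10 q of at least 5, equal list length, windows cut to the annotated segments and leaving out each list. Scripts were tested on simulated peaks. The RNA-Seq table of HEK293T cells was not used here. One marker gene is not reported here.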

Additional observations from a re-analysis of the deposited data

Results flagged for a closer look

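The IGH window differed between genotypes in how its relative density moved with RNH1. The log2 difference of RNH1 minus untreated was 0.78 and 0.86 in the 2 WT pairs and -0.10 and -0.23 in the 2 MT pairs, so that every WT pair moved up and every MT pair down. The mean of MT minus that of WT was -0.98. This difference between the genotypes was not tested. In IGK the same difference was 0.93 and 0.66 in the WT pairs and 0.11 and 0.27 in the MT pairs, so that all 4 moved up and both WT values again lay above both MT values. In log2 counts, the IGH pairs moved by -1.04 and 0.11 in WT and by -0.43 and -0.80 in MT, with overlap. The RNH1 lists as a whole were 28.3% and 59.2% as long as the untreated lists in WT and 79.4% and 67.1% in MT. With the window cut to the annotated segments, IGH relative density went from 0.597 and 0.436 to 0.75 and 0.707 in WT. In MT it then went from 0.619 and 0.627 to 0.579 and 0.539. The WT counts of IGH were small, 33 and 26 untreated peaks and 16 and 28 after RNH1. Those of IGK were smaller, 13 and 15 untreated and 7 and 14 after RNH1. Background pileup was lowest in the WT RNH1 lists, at 1.62 and 2.17 reads. Its part was not tested.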

How the results depend on the processing

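Of 230 alternative values, 13 turned around, 8 counts of regions or segments moved by over 1.5 times, and 209 did neither, though a log2 difference among them could shrink or grow: untreated against RNH1, the IGK count fell from 0.38 to 0.01 with covered bases, and IGK relative density in untreated MT against WT went from -0.03 to -0.53 with enrichment of at least 4. With the same number of peaks per list, MT against WT turned to -0.11 (IGH, count and relative density) and -0.37 (IGK count) in untreated DNA, and to -0.73 (IGH count), 0.34 (IGK relative density) and -0.17 (IGL, both) after RNH1. Untreated against RNH1 turned to 0.04 (IGH relative density) and -0.23 (IGK count). With enrichment of at least 4, IGH relative density in untreated MT against WT became -0.15, the regions in untreated MT and not WT fell from 86 to 52, those in all 4 untreated lists from 26 to 15, and those without RNH1 peaks from 4 to 0. Within 1 kb of a segment, the mean number of segments with an untreated peak rose to 4.5 (IGH, WT), 22.5 (IGH, MT), 3 (IGK, MT), 6 (IGL, WT) and 13.5 (IGL, MT).

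Leaving out 1 list at a time, IGK relative density in untreated MT against WT ranged from -0.09 to 0.03, turning without the second list of either genotype, and the IGH bona fide difference ranged from -13.3 to 2.56 points, turning without the first WT list. IGH relative density in untreated MT against WT, 0.26, was 0.48 without the first WT list and 0.05 without the second. That of IGL after RNH1, 0.13, was 0.24 and 0.01 without the first and second WT list and 0.06 without the second MT list. IGH relative density in untreated against RNH1, -0.33, was -0.18 and -0.15 without the first and second WT pair and -0.52 without the second MT pair. Without the first WT list, the IGK count after RNH1 went from 1.31 to 0.81, and without its pair that of untreated against RNH1 from 0.38 to 0.21. With the replicate number as a block, the differences of MT from WT kept their values (1.37, 1.08 and 1.25 for untreated counts of IGH, IGK and IGL), and the exact permutation p became 0.5, the smallest for 2 pairs, or 1. No replicate block for untreated against RNH1 gave exact permutation p of 0.111 for IGH and IGK counts, 0.0556 for the IGL count and the relative densities of IGK and IGL, and 0.333 for that of IGH, so no call changed. The cause of these turns was not tested. With 2 lists a group no p could pass 0.05, and a window without a peak may hold signal below the q threshold.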
